A study of Mus musculus with 12 samples.

Results

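The Hedgehog pathway genes described here were Gli1, Gli2, Gli3, Ptch1, Smo, Hhip, Ihh, Dhh and Gas1. They were chosen by name, with Gli1 included as a skeletal stem cell marker, and all 9 were found among the 49585 Ensembl genes counted in the study. Their RNA was compared across 4 stromal populations sorted from mouse bone and bone marrow, with 3 libraries for each population and 2000 cells for each library. All 9 passed the filter on low counts, a value of 0.5 CPM (counts of a gene as a share of its library's scaled total) or more in any 1 library, which 18648 genes passed.

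The mice were male wild-type C57BL/6 animals of 8 to 10 weeks of age in steady state, and all cells were negative for CD45, Ter119 and CD31, which mark blood, erythroid and endothelial cells. Itga8+ MSCs (Itga8+Alcam+Sca-1-), Itga8-Alcam+ BLCs, which the labels call osteoblasts, and Sca-1+ MSCs (Alcam-Sca-1+) were released with collagenase from crushed femora, tibiae and iliac bones after the marrow had been flushed out. CD51+CD140a+ MSCs came from the flushed marrow of femora and tibiae, digested with Accumax. Population and isolation method therefore cannot be told apart in any comparison with CD51+CD140a+ MSCs. Nothing in the labels says that the 3 libraries of a population came from separate animals, so the p-values measure only the spread between these samples.

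Hedgehog ligands are secreted proteins that bind the receptor Ptch1. In the absence of ligand Ptch1 restrains the membrane protein Smo, and ligand binding releases Smo to signal through the primary cilium to the Gli transcription factors. Gli2 and Gli3 carry the first response, Gli3 acting largely as a repressor when the pathway is off, and Gli1, Ptch1 and Hhip are themselves widely used as target genes whose transcription rises with pathway activity. In the skeleton Ihh is known as the ligand of growth plate chondrocytes, and Gli1 as a label of stem and progenitor cells below the growth plate and along the bone surface.

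Each library held 17580677 to 31332475 counts on genes, and 3 counts, treated as the floor of detection, corresponded to 0.0820 to 0.180 CPM. The sorting markers were checked first. Itga8 was at 35.2 to 199 CPM in Itga8+ MSCs and at 0.398 to 4.17 CPM in Itga8-Alcam+ BLCs, whereas CD51+CD140a+ MSCs, which were not sorted on Itga8, held 53.1 to 82.9 CPM. Alcam was at 1.29 to 5.82 CPM in both Alcam+ populations and at 0 to 0.221 CPM in the others, Ly6a (Sca-1) was at 611 to 659 CPM in Sca-1+ MSCs and at or below 35.7 CPM elsewhere, and all 8 osteoblast markers were higher in Itga8-Alcam+ BLCs than in Itga8+ MSCs. A pair of libraries stood apart. Genes with long exons were depleted relative to genes with short exons in Itga8+ MSCs replicate 2 (median log2 deviation of the longest minus that of the shortest exon length class, -1.19) and in Itga8-Alcam+ BLCs replicate 3 (-0.81), against -0.32 to 0.54 in the other 10 libraries. Of the 9 Hedgehog genes, 8 had their lowest value among Itga8+ MSCs in replicate 2 and 8 had their lowest value among Itga8-Alcam+ BLCs in replicate 3. Markers of blood cells summed to 7294 CPM in Itga8+ MSCs replicate 2, against 61.4 to 2273 CPM in the other libraries. The counts of called genes are therefore also given without this pair.

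A gene was called in a comparison when edgeR's quasi-likelihood test, fitted to all 12 libraries, gave an FDR under 0.1 over all genes tested and a fold change above 2. None of the 9 Hedgehog genes was called between Itga8+ MSCs and Itga8-Alcam+ BLCs by edgeR, where 3.82% of all genes were called, 1.66% as higher and 2.16% as lower in Itga8+ MSCs. At an unadjusted p under 0.05 with edgeR there were 2, Dhh and Gas1. Dhh was called by DESeq2, with 597 of all genes higher and 606 lower in Itga8+ MSCs, and by limma-trend, with 392 and 539. Between Itga8+ MSCs and Sca-1+ MSCs 2 were called (background 21.7%, of which 12.9% higher and 8.89% lower), with Hhip higher and Gas1 lower in Itga8+ MSCs. Between Itga8-Alcam+ BLCs and Sca-1+ MSCs 3 were called (background 26.4%, of which 14.5% higher and 11.9% lower), with Hhip and Dhh higher and Gas1 lower in the BLCs. Against CD51+CD140a+ MSCs 5 were called in Itga8+ MSCs (background 35.6%, of which 21.2% higher and 14.3% lower) and 5 in Itga8-Alcam+ BLCs (background 35.3%, of which 20.4% higher and 14.9% lower). In both, Gli1, Hhip and Dhh were higher and Gli3 and Gas1 lower than in CD51+CD140a+ MSCs, which are shared by these comparisons. Neither Gli1 nor Dhh reached the filter's 0.5 CPM in any CD51+CD140a+ library, and Dhh reached it only in Alcam+ libraries. That Gli1 and Dhh were tested thus rests on the populations in which they were called higher. Sca-1+ MSCs differed from CD51+CD140a+ MSCs in 3 of the genes (background 20.5%, of which 11.2% higher and 9.3% lower), with Gli1 and Hhip higher and Ptch1 lower in Sca-1+ MSCs. Since these are bulk samples, fewer cells expressing a gene and less RNA per expressing cell cannot be told apart.

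Over the 4 populations together, the levels of 5 of the 9 genes differed at an FDR under 0.1 (Gli1, Gli3, Hhip, Dhh and Gas1), against 47.5% of all genes. Of the 54 tests of a Hedgehog gene in a pair of populations, 18 led to a call, and Gli2, Smo and Ihh were called in none. The share of all genes called in these pairs ran from 3.82% to 35.6%. Without Itga8+ MSCs replicate 2 and Itga8-Alcam+ BLCs replicate 3, the numbers called were 1, 2, 3, 5, 5 and 3 in the order in which the comparisons are given above, and 6 over all populations. Of the 18192 genes tested without these libraries, 335 were higher and 324 lower in Itga8+ MSCs than in the BLCs. Against Sca-1+ MSCs the numbers higher and lower were 2110 and 1574 for Itga8+ MSCs and 2732 and 2260 for the BLCs. Against CD51+CD140a+ MSCs they were 3227 and 2480 for Itga8+ MSCs, 3513 and 2714 for the BLCs and 2390 and 2134 for Sca-1+ MSCs. The libraries of Itga8+ MSCs did not overlap with the BLCs for 2 of the 9 genes (14.2% of all genes), with Sca-1+ MSCs for 3 (37.6%) and with CD51+CD140a+ MSCs for 6 (44.4%). Those of the BLCs did not overlap with Sca-1+ MSCs for 4 (45.7%) and with CD51+CD140a+ MSCs for 7 (49.8%), and the remaining pair of populations was separate for 6 (45.9%).

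**Figure D1:**
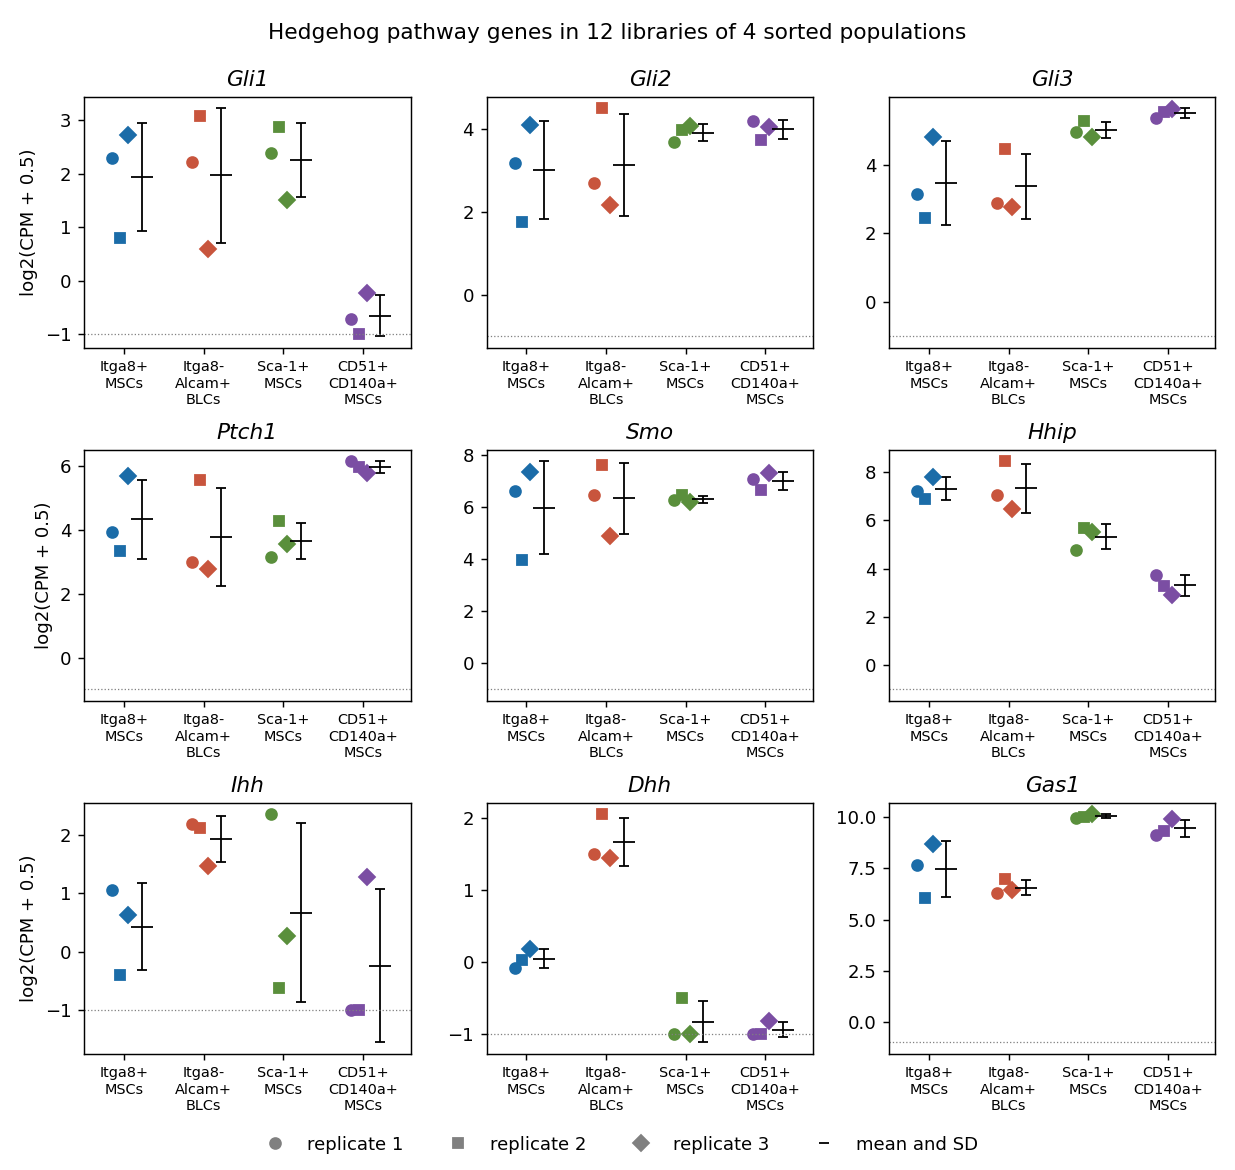
Level of each Hedgehog gene, as log2(CPM + 0.5), in the 3 libraries of each sorted population (symbols), with the mean and SD of the log2 values beside them; the dotted line marks 0 CPM, and the vertical scale differs between genes. Gli1 lies near the dotted line in CD51+CD140a+ MSCs (0 to 0.354 CPM) and at 1.02 to 7.97 CPM in the other populations, while Hhip falls from 87.6 to 351 CPM in the 2 Alcam+ populations to 6.96 to 12.8 CPM in CD51+CD140a+ MSCs.

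Ligand transcripts were scarce. Ihh (ENSMUSG00000006538, chr1:74945315-74951672 in mm10, minus strand), the ligand known from prehypertrophic cartilage, was at 4.08, 3.85 and 2.28 CPM in Itga8-Alcam+ BLCs, or 3.40 ± 0.981 CPM (SD, n = 3). In Itga8+ MSCs it was at 1.58, 0.260 and 1.04 CPM. The Sca-1+ MSCs held 4.65, 0.153 and 0.703 CPM and the CD51+CD140a+ MSCs 0, 0 and 1.93 CPM, so that 1 library carried most of the signal in each of these populations (84, 3 and 15 counts, and 0, 0 and 60 counts). The BLC libraries lay above every library of Itga8+ MSCs and of CD51+CD140a+ MSCs, but no comparison of Ihh passed edgeR's test, with FDRs from 0.253 to 0.788. With limma-trend Ihh was called higher in the BLCs than in CD51+CD140a+ MSCs (FDR = 0.0367). Without CD51+CD140a+ MSCs replicate 3, the remaining libraries of that population were at 0 and Ihh was called higher in all 3 bone populations, with FDRs of 0.0263 for Itga8+ MSCs, 0.00969 for the BLCs and 0.0207 for Sca-1+ MSCs. The hypertrophic cartilage collagen Col10a1 was at 12.7 to 192 CPM in the BLCs, 0 to 13.3 CPM in Itga8+ MSCs, 0 to 0.612 CPM in CD51+CD140a+ MSCs and 5.60 to 16.0 CPM in Sca-1+ MSCs, and its part in the Ihh values was not tested.

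Dhh (ENSMUSG00000023000, chr15:98891152-98898540, minus strand), a ligand known from Schwann cells and from Sertoli cells of the testis, was highest in Itga8-Alcam+ BLCs. The BLC libraries held 2.34, 3.66 and 2.22 CPM (2.74 ± 0.8 CPM, SD, n = 3) and the Itga8+ MSCs 0.445, 0.519 and 0.636 CPM. In Sca-1+ MSCs Dhh had 0, 4 and 0 counts, and in CD51+CD140a+ MSCs 0, 0 and 2 counts. All BLC libraries thus lay above all Itga8+ libraries, and these above all libraries of the other populations. Against CD51+CD140a+ MSCs, taken at their floor of 3 counts per library, Dhh was at least 31.1-fold higher in the BLCs (FDR = 0.00189, edgeR) and at least 6.05-fold higher in Itga8+ MSCs (FDR = 0.0182, edgeR). Against Sca-1+ MSCs the fitted log2 fold change of the BLCs was 5.23 ± 1.18 (SE; FDR = 0.00890, edgeR), which rests on 4 counts in 1 Sca-1+ library and ranged from 4.65 to 9.004, the latter without that library, replicate 2. Itga8+ MSCs did not pass against Sca-1+ MSCs (log2 2.88 ± 1.14, SE; FDR = 0.107, edgeR), but did with DESeq2 (FDR = 0.0212), limma-trend (FDR = 0.0141) and without Sca-1+ replicate 2 (log2 6.65; FDR = 0.0356, edgeR). The difference between the BLCs and Itga8+ MSCs, 2.35 on the log2 scale, did not pass edgeR's test after adjustment (FDR = 0.335), and passed with DESeq2 (FDR = 0.0390) and limma-trend (FDR = 0.0506).

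The Dhh exons share bases with Rhebl1 and Gm49442, 25.2% with genes on the opposite strand and 12.4% on the same strand, and 77.8% of their 50-base words occur in no other gene, so part of these small counts is uncertain. Rhebl1 itself had 14 to 74 counts in the 12 libraries, with 14 to 56 in the BLCs, 23 to 50 in Itga8+ MSCs, 18 to 60 in CD51+CD140a+ MSCs and 48 to 74 in Sca-1+ MSCs. Of the 8 Schwann cell markers, 6 were higher in the BLCs than in CD51+CD140a+ MSCs, among them the neural crest and glial factor Sox10, the myelin gene Mbp, S100b and Foxd3. The neural crest factor Foxd3 was at 0.180 to 0.973 CPM in the BLCs and at 0 in all 9 other libraries. The markers summed to 378 to 535 CPM in the BLCs, 332 to 566 CPM in Itga8+ MSCs, 280 to 371 CPM in CD51+CD140a+ MSCs and 743 to 915 CPM in Sca-1+ MSCs, most of it from Pmp22, which is not restricted to Schwann cells. The part of such cells in the Dhh values was not tested.

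The ligand receptor Ptch1 and the ligand-binding inhibitor Hhip are both classical Gli targets, and they differed in which population held the highest mean, CD51+CD140a+ MSCs for Ptch1 and the BLCs for Hhip. Ptch1 (ENSMUSG00000021466, chr13:63508328-63573598, minus strand) was at 71.3, 63.4 and 55.1 CPM in CD51+CD140a+ MSCs, or 63.3 ± 8.13 CPM (SD, n = 3). All these libraries lay above all others. The Itga8+ MSCs held 15.0, 9.66 and 51.9 CPM, the BLCs 7.47, 46.8 and 6.42 CPM, and the Sca-1+ MSCs 8.52, 19.1 and 11.2 CPM. Only the difference from Sca-1+ MSCs was called, 4.89-fold in favour of CD51+CD140a+ MSCs (log2 2.29 ± 0.79, SE; FDR = 0.0698, edgeR), and that call was lost when any 1 of the 6 libraries was left out (FDR 0.103 to 0.207). The log2 difference itself, Sca-1+ minus CD51+CD140a+ MSCs, stayed between -2.68 and -2.06. The libraries spanned 5.37-fold among Itga8+ MSCs and 7.30-fold among the BLCs, and the differences from CD51+CD140a+ MSCs had FDRs of 0.208 in Itga8+ MSCs and 0.126 in the BLCs. The latter passed with DESeq2 (FDR = 0.0746), limma-trend (FDR = 0.0332) and library totals alone (FDR = 0.0435). Leaving out the highest library made each pass, with log2 differences of -2.36 without Itga8+ replicate 3 (FDR = 0.0388, edgeR) and -3.19 without BLC replicate 2 (FDR = 0.00598, edgeR). Over all single libraries left out, the ranges were -2.36 to -0.90 for Itga8+ MSCs and -3.19 to -1.23 for the BLCs.

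Hhip (ENSMUSG00000064325, chr8:79965851-80058006, minus strand), a membrane and secreted protein that captures Hedgehog ligands, was at 150.2, 117 and 224 CPM in Itga8+ MSCs and at 133, 351 and 87.6 CPM in Itga8-Alcam+ BLCs. It was at 26.4, 51.3 and 46.0 CPM in Sca-1+ MSCs and at 12.8, 9.20 and 6.96 CPM in CD51+CD140a+ MSCs. No library of the Alcam+ populations overlapped with the Sca-1+ MSCs, nor these with the CD51+CD140a+ MSCs. Against CD51+CD140a+ MSCs, Hhip was 17.0-fold higher in Itga8+ MSCs (log2 4.08 ± 0.55, SE; FDR = 0.000206, edgeR) and 19.7-fold higher in the BLCs (FDR = 0.000153, edgeR). The step from Sca-1+ MSCs up to Itga8+ MSCs was 3.97-fold (FDR = 0.0201, edgeR) and the step from CD51+CD140a+ MSCs up to Sca-1+ MSCs 4.27-fold (FDR = 0.0124, edgeR). Itga8+ MSCs and the BLCs could not be ordered (log2 difference -0.22 ± 0.48, SE; FDR = 0.946, edgeR). These 5 calls held under every alternative tried, leaving out each library included. In those fits without 1 library, log2 differences from CD51+CD140a+ MSCs ranged from 3.51 to 4.64 for the BLCs and 3.79 to 4.34 for Itga8+ MSCs.

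Most cartilage markers were also higher in the Alcam+ populations. The 8 markers (Sox9, Acan, Col2a1, Matn3, Col9a1, Comp, Col10a1 and Mia) summed to 15612 to 125059 CPM in Itga8+ MSCs and 14659 to 78010 CPM in the BLCs, against 562 to 1436 CPM in CD51+CD140a+ MSCs and 9232 to 9847 CPM in Sca-1+ MSCs. Most of the sum in Sca-1+ MSCs came from Comp, at 7655 to 8527 CPM, against 4646 to 9170 CPM in Itga8+ MSCs and 3980 to 5223 CPM in the BLCs. In Itga8+ MSCs, 7 of the 8 markers were called higher than in the marrow population and 6 higher than in Sca-1+ MSCs, and none was called lower. The part of cartilage cells in the Hhip values was not tested.

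The start regions of Ptch1 and Hhip are shown because both are known targets of the same factors, while CD51+CD140a+ MSCs held the highest mean of Ptch1 and the lowest of Hhip. Each run holds the 250 bases before and the 50 bases after the RefSeq start on the gene's own strand in GRCm38.p6, at chr13:63565686-63565985 for Ptch1 and chr8:80057959-80058258 for Hhip, both on the minus strand. The Ptch1 window lies at a start inside the gene as GENCODE M21 annotates it, downstream of the 5′ end given above, whereas the Hhip window lies at the annotated 5′ end. Capitals mark the GC box GGGCGG or its reverse complement CCGCCC.
Ptch1: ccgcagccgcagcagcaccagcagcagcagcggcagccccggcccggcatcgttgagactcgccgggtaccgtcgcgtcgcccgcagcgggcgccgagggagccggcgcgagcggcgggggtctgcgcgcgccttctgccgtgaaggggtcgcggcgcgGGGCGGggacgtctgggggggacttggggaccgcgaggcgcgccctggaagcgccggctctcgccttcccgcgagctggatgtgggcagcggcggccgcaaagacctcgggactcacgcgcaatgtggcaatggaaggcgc
Hhip: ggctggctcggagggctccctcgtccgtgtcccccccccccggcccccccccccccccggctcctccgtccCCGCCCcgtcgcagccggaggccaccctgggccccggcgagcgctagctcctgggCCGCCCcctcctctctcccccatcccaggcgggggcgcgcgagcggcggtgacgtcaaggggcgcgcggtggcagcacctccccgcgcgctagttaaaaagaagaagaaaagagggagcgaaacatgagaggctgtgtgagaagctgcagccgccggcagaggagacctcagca

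The Ptch1 window held 1 GC box and the Hhip window 2, and at least 1 was found in 35.7% of the 32851 mouse start regions of the same length. The consensus GACCACCCA of the Gli factors, searched on both strands, was in neither window, in none of the 8 windows matched to the Hedgehog genes (no window was matched to Gli1) and in 0.253% of all windows. This says only that these letters do not occur in these windows. The GC content was 76.3% for Ptch1 and 73.7% for Hhip, with a median of 52.7% over all windows.

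Expressed per exon length (TPM, counts divided by exon length and scaled to the same sum in every library), which allows genes to be compared, Hhip exceeded Ptch1 in all 9 libraries of the bone populations and Ptch1 exceeded Hhip in all 3 of the marrow population. Hhip made up 87.1% to 95.0% of the Ptch1 and Hhip sum in Itga8+ MSCs, 92.1% to 96.5% in the BLCs and 80.8% to 86.5% in Sca-1+ MSCs. In CD51+CD140a+ MSCs it was 16.5% to 21.9%. The sum itself was 69.2 ± 36.1 TPM in Itga8+ MSCs and 70.5 ± 60.1 TPM in the BLCs, against 20.2 ± 6.42 TPM in Sca-1+ MSCs and 22.4 ± 5.11 TPM in CD51+CD140a+ MSCs (SD, n = 3 each). The ranges of the share did not overlap between CD51+CD140a+ MSCs and any other population.

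**Figure D2:**
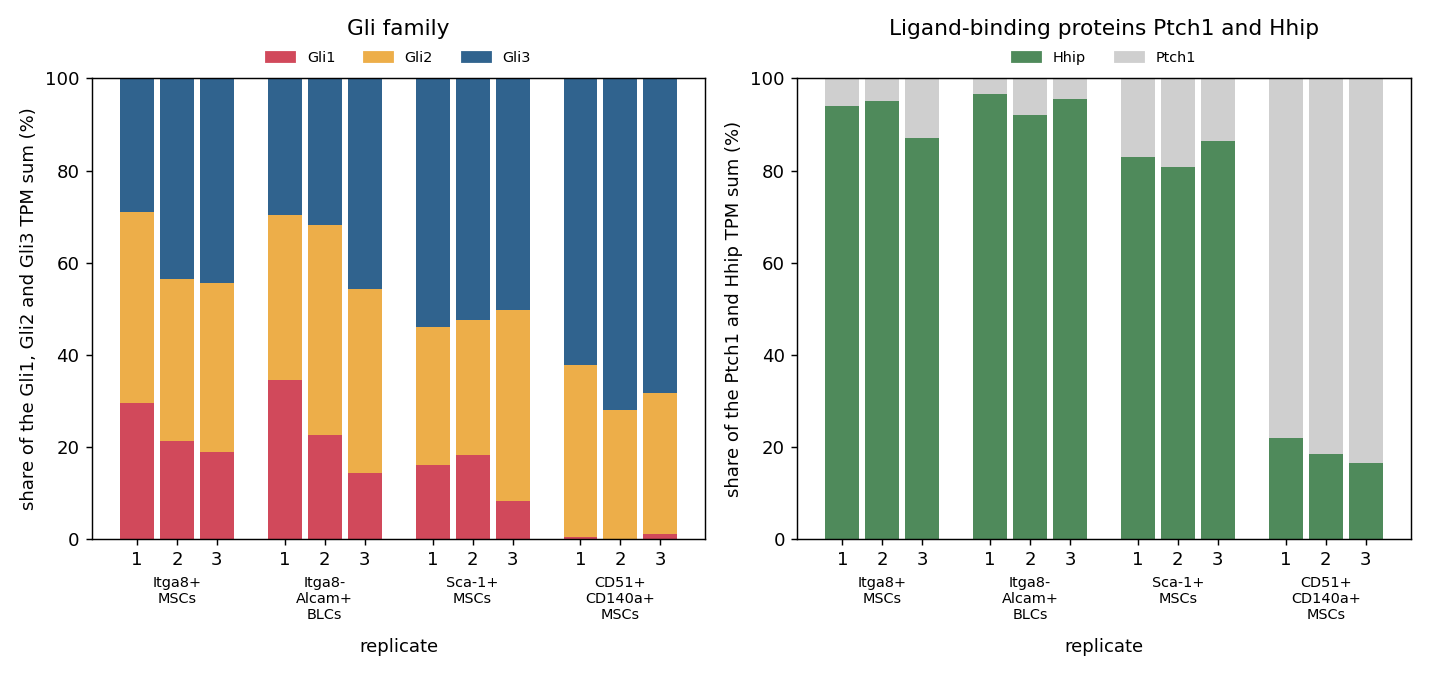
Shares of the summed TPM of Gli1, Gli2 and Gli3 (left) and of Ptch1 and Hhip (right), in percent, for each of the 12 libraries; each bar is 1 library. Gli1 takes 8.25% to 34.5% of the Gli sum in the bone populations and at most 0.947% in CD51+CD140a+ MSCs, and Hhip takes at least 80.8% of the sum on the right in the bone populations and at most 21.9% in CD51+CD140a+ MSCs.

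Gas1 (ENSMUSG00000052957, chr13:60174405-60177365, minus strand, a single exon), a membrane-anchored co-receptor that helps cells to bind Hedgehog ligands, was the most abundant Hedgehog gene per exon length in all 12 libraries. Sca-1+ MSCs held 1014, 1038 and 1149 CPM (1067 ± 72.4 CPM, SD, n = 3) and CD51+CD140a+ MSCs 557, 654 and 983 CPM. The BLCs held 78.0, 125 and 86.8 CPM and the Itga8+ MSCs 205, 65.1 and 420.0 CPM. Every library of the Alcam+ populations was thus below every library of the other populations. Gas1 was 11.1-fold higher in Sca-1+ MSCs than in the BLCs (log2 3.47 ± 0.55, SE; FDR = 0.00121, edgeR) and 4.64-fold higher than in Itga8+ MSCs (FDR = 0.0151, edgeR). It was 7.58-fold higher in CD51+CD140a+ MSCs than in the BLCs (FDR = 0.00177, edgeR) and 3.18-fold higher than in Itga8+ MSCs (FDR = 0.0307, edgeR). With single libraries left out, the log2 differences of Itga8+ MSCs ranged from -3.01 to -1.79 against Sca-1+ MSCs and from -2.43 to -1.20 against CD51+CD140a+ MSCs. For the BLCs the ranges were -3.74 to -3.38 and -3.16 to -2.65. In Sca-1+ MSCs all libraries also lay above those of CD51+CD140a+ MSCs, but that difference was not called (FDR = 0.568, edgeR). The difference between Itga8+ and CD51+CD140a+ MSCs missed the threshold in a fit of these populations alone (FDR = 0.102) and without CD51+CD140a+ MSCs replicate 3 (FDR = 0.105). Between Itga8+ MSCs and the BLCs the log2 difference of 1.25 ± 0.51 (SE) had an FDR of 0.324 with edgeR, and without Itga8+ MSCs replicate 2 it was 1.72 with an FDR of 0.0211. It ranged from 0.50 to 1.72 with single libraries left out. The part of the exon that overlaps an opposite-strand gene was 19.9%.

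Smo (ENSMUSG00000001761, chr6:29735503-29761365, plus strand), the transducer that Ptch1 restrains, was present in every population and called in none of the comparisons. It was at 98.4, 14.9 and 162 CPM in Itga8+ MSCs, 87.6, 197 and 29.3 CPM in the BLCs, 75.6, 86.4 and 72.9 CPM in Sca-1+ MSCs and 133, 98.7 and 158 CPM in CD51+CD140a+ MSCs. The Alcam+ populations spanned a range of 10.8-fold and 6.73-fold between their own libraries, with the lowest value in each in the library poor in long transcripts, whereas the other populations spanned 1.18-fold and 1.599-fold. Fitted log2 differences lay between -0.73 and 0.42 with an SE of 0.72 in each comparison.

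Among the transcription factors Gli1 carried the clearest pattern. Gli1 (ENSMUSG00000025407, chr10:127329882-127341974, minus strand), a transcriptional activator that is itself induced by the pathway, was at 4.40, 1.25 and 6.12 CPM in Itga8+ MSCs, 4.18, 7.97 and 1.02 CPM in Itga8-Alcam+ BLCs and 4.76, 6.82 and 2.34 CPM in Sca-1+ MSCs. In CD51+CD140a+ MSCs it was at 0.109, 0 and 0.354 CPM, which corresponded to 4, 0 and 11 counts in libraries that were the deepest of the study. The libraries of the 3 bone populations overlapped with each other and did not overlap with the marrow population. Gli1 was 25.1-fold higher in Itga8+ MSCs (log2 4.65 ± 1.08, SE; FDR = 0.00753, edgeR), 28.15-fold higher in the BLCs (FDR = 0.00613, edgeR) and 29.6-fold higher in Sca-1+ MSCs (FDR = 0.00783, edgeR) than in CD51+CD140a+ MSCs. Two-sided exact permutation gave p = 0.1 for each, the smallest this design allows. These folds rest on few counts in the marrow population, and with single libraries left out the log2 values ranged from 4.07 to 6.01 for Itga8+ MSCs, 4.06 to 6.17 for the BLCs and 4.31 to 6.25 for Sca-1+ MSCs, each highest without CD51+CD140a+ replicate 3. Of the Gli1 exons, 6.55% overlap with opposite-strand genes, among them Arhgap9, which had 147 to 225 counts in CD51+CD140a+ MSCs and 35 to 586 counts over all libraries. Among the bone populations the log2 differences were -0.24 to -0.07, with an SE of 0.89 (FDR 0.878 to 0.988, edgeR), and their sign turned with the libraries left out.

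Other genes used to label skeletal stem or progenitor cells did not share 1 order. Lepr, the leptin receptor that marks perivascular marrow stroma, was at 6112 ± 548 CPM (SD, n = 3) in CD51+CD140a+ MSCs, against 34.3 ± 24.9 CPM in Itga8+ MSCs, and Grem1, a BMP antagonist, was at 119 ± 11.5 CPM against 1.54 ± 1.37 CPM. Of 9 such markers, 3 (Lepr, Grem1 and Prrx1) were higher in the marrow population than in Itga8+ MSCs and 2 (Ctsk and Acta2) were lower. Like Gli1, the cathepsin gene Ctsk had its lowest mean in CD51+CD140a+ MSCs, at 136 ± 9.45 CPM against 363 ± 211 CPM in Itga8+ MSCs. Axin2, a target of Wnt signalling, was at 0.156 to 1.37 CPM in all 12 libraries and was called in none of the comparisons with CD51+CD140a+ MSCs.

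Gli2 (ENSMUSG00000048402, chr1:118834132-119053619, minus strand), the main activator of the initial response, was at 8.56, 2.86 and 16.5 CPM in Itga8+ MSCs, 5.98, 22.0 and 3.96 CPM in the BLCs, 12.2, 15.2 and 16.2 CPM in Sca-1+ MSCs and 17.6, 12.8 and 15.8 CPM in CD51+CD140a+ MSCs. No comparison was called, and the SEs of the log2 differences were 0.64 to 0.65. Without BLC replicate 2, Gli2 was called lower in the BLCs than in Sca-1+ MSCs (log2 -1.59; FDR = 0.0792, edgeR) and in CD51+CD140a+ MSCs (log2 -1.63; FDR = 0.0599, edgeR). With all libraries these values were -0.45 and -0.53. With single libraries left out they ranged from -1.59 to -0.059 and from -1.63 to -0.14. Gli3 (ENSMUSG00000021318, chr13:15463235-15730026, plus strand) was at 40.6, 46.1 and 49.1 CPM in CD51+CD140a+ MSCs and at 30.8, 37.9 and 27.5 CPM in Sca-1+ MSCs. It was lower in Itga8+ MSCs, at 8.31, 4.93 and 27.7 CPM, and in the BLCs, at 6.87, 21.5 and 6.30 CPM. Gli3 was 3.91-fold higher in CD51+CD140a+ MSCs than in the BLCs (FDR = 0.0311, edgeR) and 3.32-fold higher than in Itga8+ MSCs (FDR = 0.0516, edgeR). The first call was lost without BLC replicate 1 (FDR = 0.111) or 3 (FDR = 0.106), and the second without Itga8+ replicate 1 (FDR = 0.141) or 2 (FDR = 0.122) or CD51+CD140a+ replicate 3 (FDR = 0.114). With single libraries left out, the log2 differences from CD51+CD140a+ MSCs ranged from -2.785 to -1.677 for the BLCs and from -2.768 to -1.308 for Itga8+ MSCs. Gli3 in Sca-1+ MSCs, with an FDR of 0.107 against the BLCs, passed under 10 alternatives, DESeq2 (FDR = 0.0514) and limma-trend (FDR = 0.0517) among them. Against Itga8+ MSCs it passed with limma-trend (FDR = 0.0758) and without Itga8+ replicate 3 (FDR = 0.0135, edgeR).

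The makeup of the Gli family differed accordingly. In Itga8+ MSCs the sum of 12.9 ± 10.8 TPM was 23.1% ± 5.59 Gli1, 37.9% ± 3.31 Gli2 and 39.0% ± 8.68 Gli3 (SD, n = 3). In CD51+CD140a+ MSCs the sum was 28.1 ± 2.01 TPM, with 0.423% ± 0.482 Gli1, 32.0% ± 4.96 Gli2 and 67.5% ± 5.03 Gli3. The Gli1 share was 23.8% ± 10.2 in the BLCs and 14.1% ± 5.203 in Sca-1+ MSCs, and the range in the BLCs (14.2% to 34.5%) overlapped with those in Itga8+ MSCs (18.8% to 29.4%) and Sca-1+ MSCs (8.25% to 18.1%), which did not overlap with each other. The marrow population thus had the highest Gli3 mean and the lowest Gli1 mean.

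**Figure D3:**
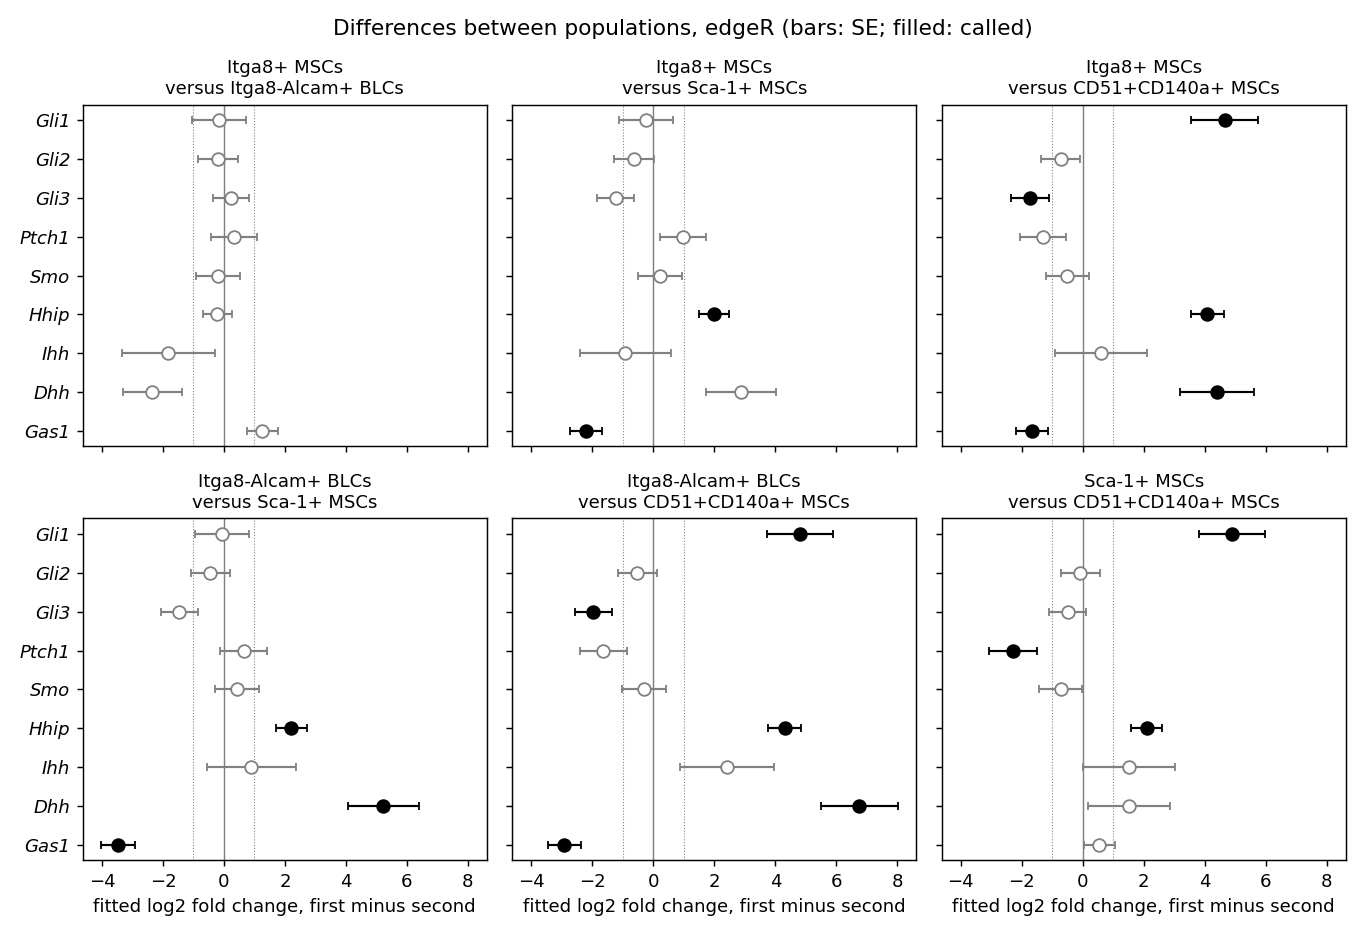
Fitted log2 fold change of each Hedgehog gene in the 6 pairwise comparisons (edgeR, 12 libraries), the first population minus the second; bars are SEs, filled points were called and dotted lines mark a 2-fold change. Gli1 and Hhip lie at 4.08 to 4.82 in both comparisons of an Alcam+ population with CD51+CD140a+ MSCs, whereas no point is filled between Itga8+ MSCs and Itga8-Alcam+ BLCs; Dhh points against CD51+CD140a+ MSCs depend on the fit, since that population held at most 2 counts.

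A wider list of 37 pathway genes was set beside the 9. Of these, 35 passed the filter and 22 differed over the 4 populations (47.5% of all genes did). The numbers called were 0 between Itga8+ MSCs and the BLCs, 9 (4 higher, 5 lower in Itga8+ MSCs) against Sca-1+ MSCs (background 21.7%) and 16 (8 higher, 8 lower) against CD51+CD140a+ MSCs (background 35.6%). The BLCs gave 10 (4 higher, 6 lower) against Sca-1+ MSCs (background 26.4%) and 18 (9 higher, 9 lower) against CD51+CD140a+ MSCs (background 35.3%). Sca-1+ MSCs gave 9 (7 higher, 2 lower) against CD51+CD140a+ MSCs (background 20.5%). The median log2 difference of the list, first population minus second, was 0.24 between Itga8+ and CD51+CD140a+ MSCs, against 0.18 over all genes tested. Between Itga8+ MSCs and the BLCs it was 0.22 against 0.084, and between Itga8+ and Sca-1+ MSCs -0.11 against 0.16. For the BLCs it was -0.64 against 0.12 with Sca-1+ MSCs and -0.036 against 0.091 with CD51+CD140a+ MSCs. Between Sca-1+ and CD51+CD140a+ MSCs it was 0.29 against -0.0026.

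Of the 5 tested genes of ligand processing and release, Itga8+ MSCs had 3 higher and 1 lower against Sca-1+ MSCs (background 21.7%). Scube2, a secreted protein that helps to release lipid-modified ligands, was at 115 to 372 CPM in Itga8+ MSCs, 33.8 to 96.9 CPM in the BLCs, 0.383 to 1.78 CPM in CD51+CD140a+ MSCs and 1.73 to 3.43 CPM in Sca-1+ MSCs. Its log2 difference between Itga8+ MSCs and Sca-1+ MSCs was 6.64 ± 0.72 (SE; FDR = 0.000173, edgeR). Hhat, which attaches palmitate to the ligands, was at 25.8 to 55.6 CPM in Itga8+ MSCs and at 8.55 to 13.8 CPM in CD51+CD140a+ MSCs and was called between them (log2 1.87 ± 0.35, SE; FDR = 0.00186, edgeR). The 1 lower gene was Disp1, a transporter that releases ligands from the cell (log2 -1.75 against Sca-1+ MSCs; FDR = 0.0799, edgeR). The ligand Shh had at most 2 counts in any library and was not tested.

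The co-receptors Cdon and Boc, which act beside Gas1, had their highest means in Sca-1+ MSCs. Cdon was at 75.3 to 119 CPM in Sca-1+ MSCs, 1.51 to 5.60 CPM in Itga8+ MSCs, 2.39 to 7.97 CPM in the BLCs and 0 to 1.58 CPM in CD51+CD140a+ MSCs, and its 3 differences from Sca-1+ MSCs were called. Boc was at 288 to 316 CPM in Sca-1+ MSCs and 54.7 to 68.6 CPM in CD51+CD140a+ MSCs (log2 2.31 ± 0.71, SE; FDR = 0.0425, edgeR), while it was at 27.9 to 198 CPM in Itga8+ MSCs and 43.6 to 242 CPM in the BLCs, neither of which was called against Sca-1+ MSCs (FDR 0.144 and 0.162, edgeR).

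Of the 19 genes of the cytoplasm and cilium, 5 were higher and 1 lower in CD51+CD140a+ MSCs than in Itga8+ MSCs, a share of 31.6% against 35.6% of all genes. Sufu, which holds Gli proteins inactive in the cytoplasm, was at 53.8 to 70.0 CPM in CD51+CD140a+ MSCs and 2.80 to 25.8 CPM in Itga8+ MSCs (log2 difference 2.23 ± 0.70, SE; FDR = 0.0330, edgeR). The ciliary receptor Gpr161, a further negative regulator, was at 2.15 to 5.63 CPM and 0.445 to 0.987 CPM. Arl13b, a small GTPase of the cilium, went the other way, at 12.3 to 16.5 CPM against 33.8 to 47.1 CPM. The lowest Sufu value in Itga8+ MSCs was that of replicate 2, the library poorest in long transcripts.

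Of the 7 tested genes known to respond to the pathway in mesenchyme or other tissues, 3 were higher and 1 was lower in Itga8+ MSCs than in the marrow population, CD51+CD140a+ MSCs, where 21.2% of all genes were called higher and 14.3% lower. The forkhead factor Foxf1 was at 8.20 to 10.3 CPM in Itga8+ MSCs, 12.9 to 18.0 CPM in the BLCs and in Sca-1+ MSCs at 3.46 to 4.37 CPM, and had at most 3 counts in each library of CD51+CD140a+ MSCs. Taken at a floor of 3 counts per library, it was at least 104-fold higher in Itga8+ MSCs, 177-fold in the BLCs and 45.9-fold in Sca-1+ MSCs. The cyclin Ccnd1 was at 24.5 to 134 CPM in Itga8+ MSCs and 1.39 to 2.43 CPM in CD51+CD140a+ MSCs. Pthlh, which acts in a feedback loop with Ihh in the growth plate, was at 25.4 to 55.2 CPM in Itga8+ MSCs, 0 to 0.966 CPM in CD51+CD140a+ MSCs and 53.8 to 73.0 CPM in Sca-1+ MSCs. The survival gene Bcl2 was lower in Itga8+ MSCs, at 9.19 to 11.9 CPM against 26.2 to 41.8 CPM. These genes are also controlled by other pathways.

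**Figure D4:**
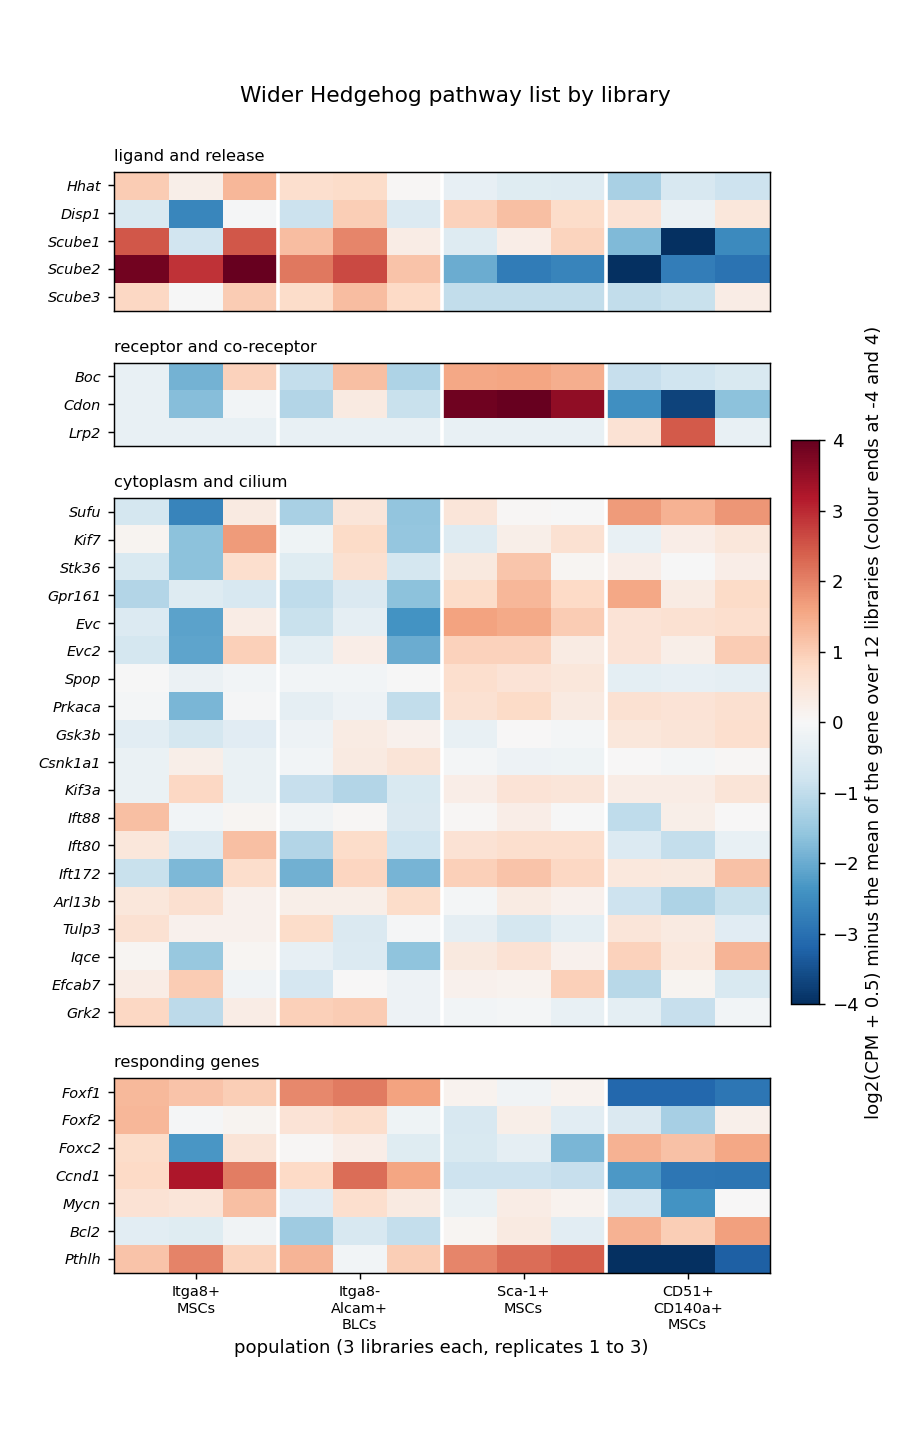
Level of tested genes of the wider pathway list in each of the 12 libraries, as log2(CPM + 0.5) minus the mean of that gene over all libraries, grouped by role; red is above and blue below the mean. Scube2 and Ccnd1 are red in both Alcam+ populations and blue in CD51+CD140a+ MSCs, Cdon is deepest red in Sca-1+ MSCs (75.3 to 119 CPM), and Foxf1 is blue in the 3 libraries of CD51+CD140a+ MSCs, which held at most 3 counts of it.

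Genes whose levels lay closest to those of a Hedgehog gene were ranked by Pearson's r of log2(CPM + 0.5) over the 12 libraries, among 10352 genes with a mean of at least 5 CPM. The libraries of a population share their sort and isolation, so r describes both the order of populations and the spread between libraries within them, the libraries poor in long transcripts included. Nearest to Gli1 were Nfatc2 (r = 0.975), Loxl4, Lamb3, Kcna6 and Lrrc8c. Nfatc2 was at 124 ± 139 CPM in Itga8+ MSCs, 146 ± 180.3 CPM in the BLCs, 82.4 ± 37.2 CPM in Sca-1+ MSCs and 2.11 ± 0.840 CPM in CD51+CD140a+ MSCs (SD, n = 3 each). With Spearman's rho, 1 of these 5 remained among the nearest 5. Nearest to Hhip were Slc1a1 (r = 0.966) and, first, the cartilage proteoglycan gene Acan (r = 0.974), at 792 ± 681, 827 ± 628, 138 ± 26.2 and 26.8 ± 2.75 CPM in the same order of populations. Nearest to Dhh were Pgbd5 (r = 0.980) and the glial receptor gene Gfra3 (r = 0.974), which was at 18.9 ± 3.35 CPM in the BLCs, 1.27 ± 0.709 CPM in Itga8+ MSCs and 0 in the other 6 libraries. The nearest for the other genes were Larp4b (r = 0.987) and Tnks2 (r = 0.979) for Gli2, Tut7 (r = 0.991) and Ttc28 (r = 0.989) for Gli3, Plagl1 (r = 0.928) and Epb41 (r = 0.928) for Ptch1, Jak2 (r = 0.974) and Dpp9 (r = 0.973) for Smo, Adam9 (r = 0.981) and Zfp41 (r = 0.979) for Gas1 and, with the loosest likeness, Plk2 (r = 0.805) and Apcdd1 (r = 0.801) for Ihh.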

How the data were processed

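RNA of 2000 sorted cells per library was amplified with SMART-Seq v4, made into Nextera XT libraries and sequenced on an Illumina instrument. The values analysed were the deposited counts of reads per gene, which the authors had not normalised. For the alignment the study names TopHat and Bowtie2 with mm10, whereas the submitters' processing notes list Trimmomatic 0.38, HISAT2 2.1.0, SAMtools 1.9 and featureCounts 1.6.3. The annotation release and strand setting are not given in the sources used here, so reads of overlapping genes could not be assigned by strand. Counting reads without molecular identifiers means that floors cover counting error only.

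Libraries were grouped by GEO's labels. Genes reaching 0.5 CPM in any 1 library were tested with edgeR 4.0.16 (TMM scaling, quasi-likelihood, all 12 libraries, Benjamini-Hochberg adjustment) in R 4.3.3, with the FDR of 0.1 and fold change of 2 that the study used. SEs are the log2 fold change divided by the square root of F. CPM values are TMM-scaled, and TPM values used the exon lengths of GENCODE M21. Single genes were also compared with exact two-sided permutation tests on log2(CPM + 0.5). The fit was tested on simulated data with 200 changed genes. The alternatives were DESeq2 1.42.0, limma-trend (limma 3.58.1), other scalings and filters, fits of the compared populations alone, a replicate block, thinned counts and leaving out each library. The removal of both libraries poorest in long transcripts and of the trend on exon length were chosen after seeing the data. Start regions came from RefSeq (GRCm38.p6). Named were the 9 Hedgehog genes, any gene of the wider list, marker genes beside a result, and the nearest genes by correlation (5 for Gli1, 2 for the others, without gene models lacking a proper symbol). The members and lists were chosen with earlier results of these data known. Some genes are not reported here.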

Additional observations from a re-analysis of the deposited data

How the results depend on the processing

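Of the alternative values for single Hedgehog genes, 1204 kept direction and side of the threshold, 40 reversed, none of them a called value, 36 passed the threshold newly and 15 no longer passed it. The calls of Gli1, Hhip and Dhh were kept throughout. The number of genes called between Itga8+ MSCs and the BLCs was 1 with DESeq2, with limma-trend and without both libraries poorest in long transcripts, and 0 to 1 when single libraries were left out. Against Sca-1+ MSCs it was 4 for Itga8+ MSCs with limma-trend and with the length trend removed. Of all genes, limma-trend called 2306 higher and 2301 lower in Itga8+ MSCs, and the fit without the length trend 2611 and 1574. For the BLCs the number of Hedgehog genes was 5 without BLC replicate 2, where 2675 of all genes were higher and 2980 lower. With single libraries left out it ranged from 3 to 5. Against CD51+CD140a+ MSCs the same ranges were 4 to 6 for Itga8+ MSCs, 4 to 7 for the BLCs and 2 to 3 for Sca-1+ MSCs, and 4 to 6 over all populations. The cause was not tested.

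Reversed log2 differences between Itga8+ MSCs and the BLCs with library totals alone were 0.11 for Gli1, 0.11 for Gli2, 0.10 for Smo and 0.078 for Hhip, in a scaling that moved the median of all genes from 0.08 to 0.34 and the share of calls higher in Itga8+ MSCs from 43.5% to 61.3%. That scaling moved the share higher in the BLCs from 57.9% to 41.8% against CD51+CD140a+ MSCs and from 54.9% to 42.6% against Sca-1+ MSCs. Smo in Itga8+ against Sca-1+ MSCs was -0.33 with limma-trend. Gli1 in the BLCs against Sca-1+ MSCs was 0.013 with thinned counts, 0.066 with the length trend removed and 0.39 without both libraries. Without both libraries, Gli1 in Itga8+ against Sca-1+ MSCs was 0.21, and Smo against CD51+CD140a+ MSCs was 0.025 in Itga8+ MSCs and 0.13 in the BLCs.

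When single libraries were left out, differences between Itga8+ MSCs and the BLCs ranged from -0.63 to 0.60 for Gli1, -0.89 to 0.92 for Gli2, -0.80 to 1.07 for Gli3, -0.71 to 1.89 for Ptch1, -0.87 to 0.67 for Smo and -0.55 to 0.59 for Hhip. Between Itga8+ and Sca-1+ MSCs they ranged from -0.74 to 0.17 for Gli1, -0.10 to 1.37 for Ptch1, -0.49 to 0.71 for Smo and -1.49 to 1.15 for Ihh. Between the BLCs and Sca-1+ MSCs the ranges were -0.86 to 0.39 for Gli1, -0.94 to 1.06 for Ptch1 and -0.46 to 0.86 for Smo. Against CD51+CD140a+ MSCs, Smo ranged from -1.18 to 0.023 in Itga8+ MSCs and -1.15 to 0.13 in the BLCs, Ihh from -0.0011 to 7.43 in Itga8+ MSCs and -0.56 to 8.36 in Sca-1+ MSCs, and in Sca-1+ MSCs Gli2 from -0.20 to 0.029 and Dhh from -2.25 to 3.71.

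Over all genes, 712 were called between Itga8+ MSCs and the BLCs, 597 higher and 606 lower with DESeq2, and 107 higher and 169 lower in a fit of these populations alone. The labels do not say whether same-numbered libraries came from the same animals. Of 18 correlations between same-numbered libraries, 5 were above 0.1 (-0.582 to 0.204), and 13 of 36 library comparisons were best with their own number. The libraries poor in long transcripts also shape these correlations, so they cannot decide whether replicate numbers pair the samples. With a replicate block the numbers of Hedgehog genes called stayed at 0 between Itga8+ MSCs and the BLCs, 2 and 3 for these against Sca-1+ MSCs, 5 and 5 for these against CD51+CD140a+ MSCs and 3 between the remaining pair, while 188 genes were called higher and 245 lower between Itga8+ MSCs and the BLCs. Dhh between Sca-1+ and CD51+CD140a+ MSCs had no value in a fit of these populations alone. Differences in Ihh and Dhh rest on few counts.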
